A study of Homo sapiens with 6 samples.

Results

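The genes described here are 10 that build or protect the ends of chromosomes: TERT and DKC1 of telomerase, the 6 genes of the shelterin complex (TERF1, TERF2, TERF2IP, POT1, ACD and TINF2), and the telomere upkeep genes RIF1 and RTEL1. They were taken by name from the deposited count table, where they occupy 11 of 61196 gene identifiers, or 10 of 48183 gene names once identifiers that share a name are summed. All 10 passed the filter on low counts that left 26497 names for testing. Polyadenylated RNA was sequenced from 6 libraries of human embryonic stem cells that carry the EOS-GFP reporter, 4 of naive cells and 2 of primed cells. Of the naive libraries, 2 came from AICAR-treated cells (AICAR 1 and AICAR 2; AICAR activates the kinase AMPK), 1 from cells treated with valproic acid (VPA, a histone deacetylase inhibitor), and 1 from cells in which doxycycline (DOX) switched on CA-p38, a constitutively active form of the kinase p38. The primed libraries came from the EOS line and the CA-p38 EOS line, neither put through naive induction. The EOS line is the parent of the AICAR and VPA cells, and the CA-p38 EOS line that of the CA-p38 cells. The CA-p38 EOS line carries the same doxycycline-inducible transgene in a transfected population. Per the methods, that population had been given doxycycline to sort it for its mCherry marker. The labels name the line H1 and the methods of the study name it H9.

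Primed cells were grown without feeders in StemFit AK02N, whereas naive cells, per the labels, were kept in PXGL medium on mouse embryonic fibroblasts for several passages after induction and were gated as CD75+ and SUSD2+ cells by flow sorting ahead of RNA isolation. The study also describes a feeder-free culture of CA-p38 cells, whereas the labels give feeders for all naive libraries. State, medium, feeder and sort therefore cannot be told apart in any comparison below, and neither can the number of cells of a kind and the RNA per cell. The study also reports abnormal karyotypes in some of its naive cultures, and the karyotype of the sequenced cells is not given in the sources used here. The libraries held 46823699 to 54277064 counts, so that 3 counts correspond to 0.0553 to 0.0641 CPM on these totals, before TMM scaling. CPM is the depth-scaled unit of RNA-seq counts, computed elsewhere here with TMM factors, which ran from 0.936 to 1.06. All 8 naive markers rose in the naive libraries, with a summed level of 5066 to 5989 CPM against 8.50 to 12.3 CPM in primed libraries. They include SUSD2, at 427.4 to 668.1 CPM in naive libraries, whose rise is not independent of the sort on SUSD2. All 6 primed markers fell, from 2457 and 3008 CPM to between 47.1 and 65.9 CPM. The naive group joins 3 ways of induction and both groups join 2 lines, so the spread behind the p-values includes differences between inductions and lines. The study lists its sequenced AICAR cells at consecutive passages after induction. Whether AICAR 1 and AICAR 2 were separate cultures is not given in the labels.

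Telomeres are repeats of a short sequence that shorten with each round of DNA replication. Telomerase, a reverse transcriptase that carries its own RNA template, adds the repeats back and is active in pluripotent stem cells and the germ line but silent in most body cells. Shelterin coats the repeats: TERF1 and TERF2 hold the double-stranded part, TERF2IP rides on TERF2, POT1 covers the single-stranded overhang, ACD (also called TPP1) joins POT1 to the complex and recruits telomerase, and TINF2 bridges TERF1, TERF2 and ACD. RIF1 acts in replication timing and in the response to damaged ends, and RTEL1 is a helicase that unwinds the loop at the telomere end.

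All 6 shelterin genes differed between naive and primed cells, 4 of them lower (TERF1, TERF2, TERF2IP, POT1) and 2 higher (ACD, TINF2) in naive cells, whereas neither telomerase gene passed the test, and of the upkeep genes RIF1 was higher and RTEL1 did not pass. That makes 7 of 10 genes called at an adjusted p under 0.05 in edgeR's quasi-likelihood test, 3 higher and 4 lower, where 53.1% of all 26497 genes tested were called, 26% higher and 27% lower. Among the 19813 genes with at least 10 counts in every library, the share called was 60.1%. In 8 of the 10 genes the naive and primed libraries did not overlap in TMM-scaled CPM, as in 64.9% of all genes tested. The median log2 fold change, naive over primed, was 0.05 over the 10 genes, -0.52 over the 6 shelterin genes and 0.11 over all genes tested. The count of 7 fell to 2 (TERF1 and POT1) without the primed EOS library and to 4 (TERF1, TERF2, POT1 and RIF1) without the primed CA-p38 library. Of all genes tested in these fits, 40.2% were called without primed EOS and 39.4% without primed CA-p38 cells. In both fits 1 primed library stood alone and was assumed to vary like the naive ones.

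**Figure D1:**
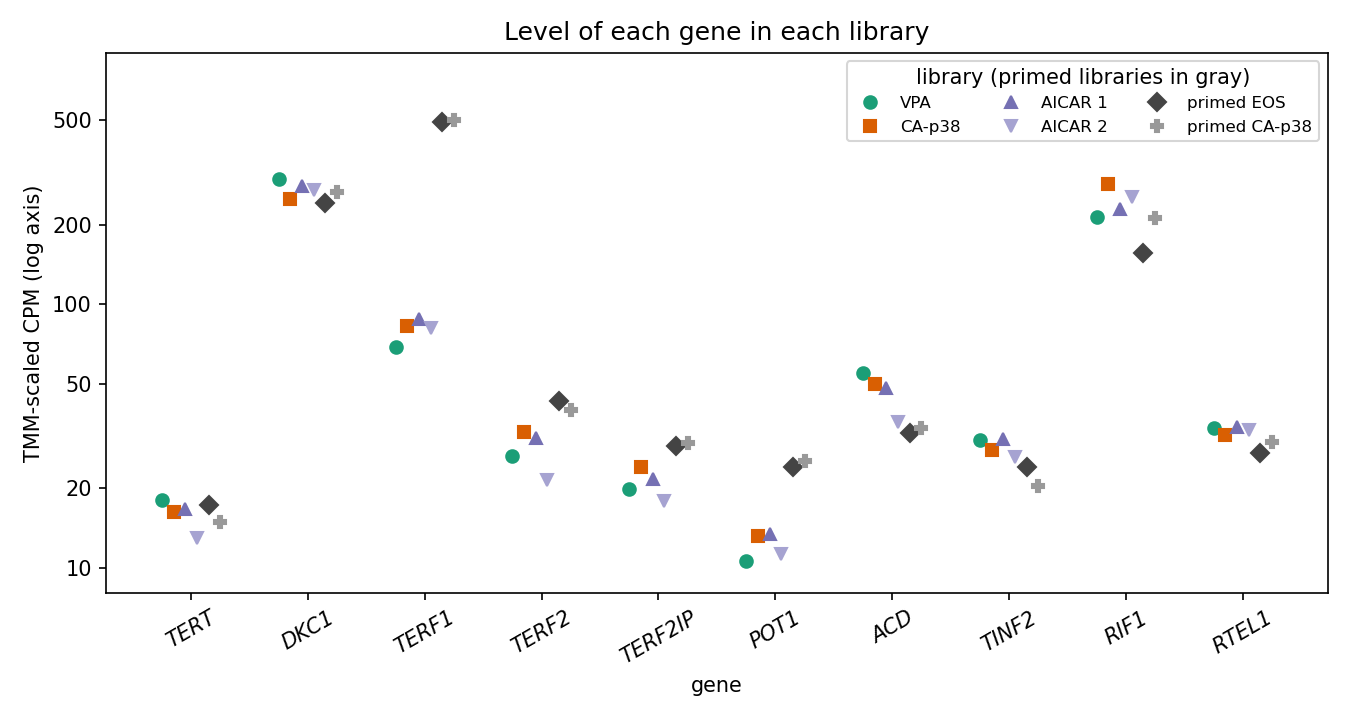
TMM-scaled CPM (log axis) of the 10 genes in each of the 6 libraries, 1 symbol per library, with primed libraries in gray. TERF1 sits near 500 CPM in both primed libraries and between 69.1 and 88.0 CPM in the naive ones, while the symbols of TERT and DKC1 mix.

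**Figure D2:**
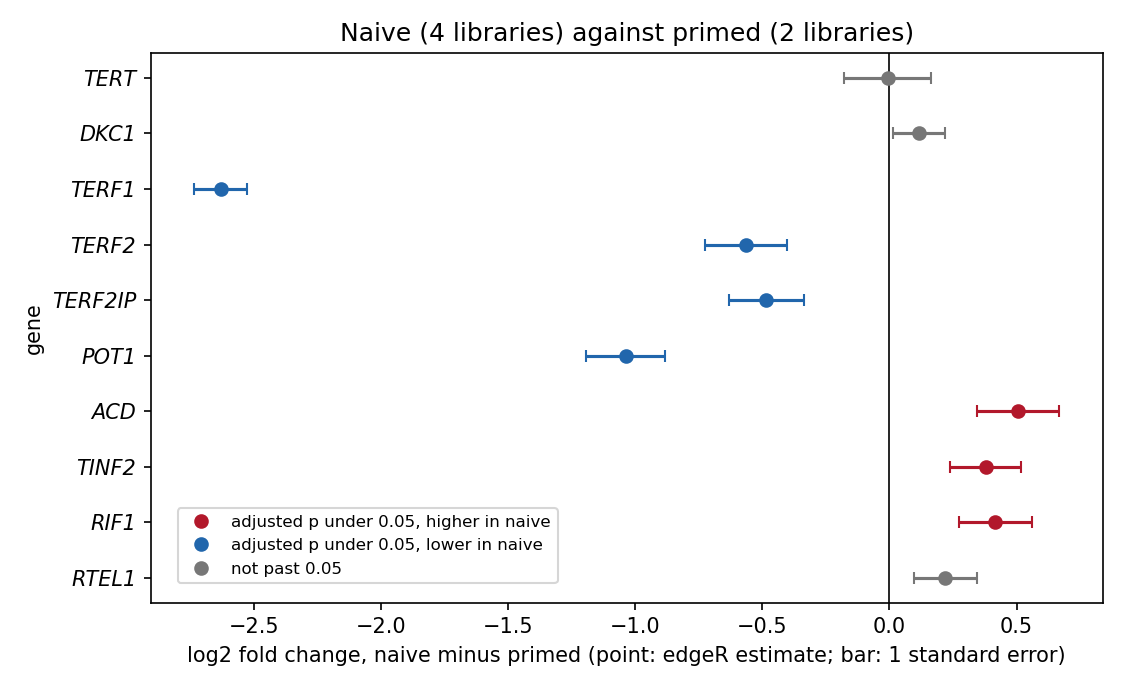
Log2 fold change of each gene, naive minus primed, from the edgeR fit of 4 against 2 libraries; bars are 1 standard error and color gives the call. Estimates run from -2.63 for TERF1 to 0.51 for ACD.

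TERT encodes the reverse transcriptase of telomerase and lies at chr5:1253147-1295068 on the minus strand, with 16 exons in its canonical transcript (GRCh38, GENCODE release 44, as for all positions here). It was detected in every library, at 18.1 CPM in VPA, 16.3 in CA-p38, 16.7 in AICAR 1, 13.0 in AICAR 2, 17.3 in the primed EOS line and 14.9 in the primed CA-p38 EOS line. The highest and the lowest value were both naive, and the groups overlapped. The log2 fold change was -0.01 (SE 0.17, the standard error of the fit, adjusted p = 0.975 by edgeR), with a 95% interval from -0.38 to 0.36. This sign turned with library totals as scaling (0.09) and the result stayed far from the threshold, with adjusted p from 0.682 to 0.9497 over the 15 alternatives.

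DKC1 (chrX:154762742-154777689, plus strand, 15 exons) encodes dyskerin, the pseudouridine synthase that stabilizes the telomerase RNA and also modifies ribosomal RNA. Its levels were 300.3 CPM in VPA, 250.2 in CA-p38, 281.9 in AICAR 1 and 270.7 in AICAR 2, against 242.4 in the primed EOS line and 266.4 in the primed CA-p38 EOS line. The CA-p38 naive value lay between those of the primed libraries, so the groups overlapped. The log2 fold change was 0.12 (SE 0.10, adjusted p = 0.359), with a 95% interval from -0.11 to 0.34. DKC1 gave 15.4 to 20.9 counts for each count of TERT in naive libraries and 14.0 and 17.9 in primed libraries, which also overlapped.

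TERF1 showed the largest difference of the 10 genes. It encodes the factor that binds double-stranded telomere repeats and limits their lengthening, and lies at chr8:73008856-73048123 on the plus strand with 10 exons. Its counts were 24445 in the primed EOS line and 24585 in the primed CA-p38 EOS line, and 3620 in VPA, 4191 in CA-p38, 4785 in AICAR 1 and 4054 in AICAR 2 naive cells. In CPM this was 498.1 ± 6.16 (SD, n = 2) in primed and 80.4 ± 8.02 (SD, n = 4) in naive libraries. The primed values differed by 1.02-fold and the naive values by 1.27-fold at most, and no naive library came near a primed one.

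TERF1 fell by 2.63 on the log2 scale (SE 0.10, adjusted p = 5.83e-10), so that primed cells had 6.19 times the naive level. Over the 15 alternatives its log2 fold change stayed between -2.69 and -2.53, with a highest adjusted p of 1.29e-06 (limma-voom). A fall of over 4-fold was called in 8.71% of all genes tested, and 6.23% of them had a lower fold change than TERF1. By the size of the p-value TERF1 was gene 236 of 26497. Among the rows of the deposited file, 7 carry names of TERF1 pseudogenes, whose counts came to between 0.222% and 1.35% of the TERF1 counts in a library.

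TERF2, on chr16:69355567-69408571 (minus strand, 10 exons), encodes the second double-strand binder, which folds the telomere end into a loop and holds back damage signaling. Its levels were 42.9 CPM in the primed EOS line and 39.7 CPM in its CA-p38 counterpart, and 26.5 in VPA, 32.8 in CA-p38, 31.0 in AICAR 1 and 21.5 in AICAR 2 cells. All naive values were below both primed ones, and the naive values spread over 1.53-fold. TERF2 fell by 0.56 on the log2 scale (SE 0.16, adjusted p = 0.0103). It missed the threshold only without the primed EOS library (adjusted p = 0.0704).

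TERF2IP, the gene of the TERF2 partner RAP1, lies at chr16:75647773-75761872 on the plus strand. It was at 28.9 and 29.7 CPM in primed EOS and primed CA-p38 cells, and at 19.8 in VPA, 24.2 in CA-p38, 21.8 in AICAR 1 and 17.9 in AICAR 2 cells. The groups did not overlap, and TERF2IP fell by 0.48 on the log2 scale (SE 0.15, adjusted p = 0.0144). The adjusted p was 0.0571 with limma-voom, and leaving out primed EOS or primed CA-p38 cells gave 0.0552 and 0.0868. In these libraries TERF2 and its partner thus moved by similar amounts, 1.48 and 1.40 times higher in primed cells. KARS1, a lysyl-tRNA synthetase gene that runs the other way and whose start lies 870 bases inside TERF2IP, was at 219.0 to 260.4 CPM in naive and 293.1 and 297.5 CPM in primed libraries. The kit keeps strand, but whether counting used it is not given in the sources used here, so reads of the shared stretch cannot be assigned.

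POT1 (chr7:124822386-124929983, minus strand, 19 exons) encodes the protein that covers the single-stranded overhang. It was at 24.2 CPM in the primed EOS line and 25.5 CPM in its CA-p38 counterpart, and at 10.6 in VPA, 13.2 in CA-p38, 13.4 in AICAR 1 and 11.3 in AICAR 2 cells. All naive values were far below both primed ones. POT1 fell by 1.04 on the log2 scale (SE 0.15, adjusted p = 9.10e-05), a primed level 2.05 times the naive one, and it stayed past the threshold under all 15 alternatives, with a highest adjusted p of 0.00213. The antisense transcript POT1-AS1, which starts 110 bases inside POT1, went the other way, with 4.08 to 5.19 CPM in naive and 1.62 and 2.21 CPM in primed libraries (log2 change 1.29, SE 0.28, adjusted p = 0.00164), with the same limit on strand as for KARS1.

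ACD (chr16:67657512-67660810, minus strand, 12 exons) encodes TPP1, the POT1 partner that brings telomerase to the telomere. It was at 55.0 CPM in VPA, 49.9 in CA-p38, 48.0 in AICAR 1 and 35.7 in AICAR 2 cells, and at 32.5 in the primed EOS line and 33.9 in the primed CA-p38 EOS line. The groups did not overlap, but AICAR 2 lay close to the primed libraries. ACD rose by 0.51 on the log2 scale (SE 0.16, adjusted p = 0.0182). Leaving out primed EOS cells gave an adjusted p of 0.107, and leaving out primed CA-p38 cells gave 0.0641. ACD and its binding partner POT1 thus moved in opposite directions: ACD gave 3.17 to 5.21 counts for each count of POT1 in naive libraries and 1.35 and 1.33 in primed EOS and primed CA-p38 cells.

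ACD also starts head to head with PARD6A, a cell polarity gene, and the pair moved apart. PARD6A was at 1.23 to 2.196 CPM in naive and 6.79 and 6.99 CPM in primed libraries, which is a log2 change of -2.005 (SE 0.27, adjusted p = 4.04e-05). The 135 bases between both starts (chr16:67660811-67660945, GRCh38) were read from the genome on the minus strand, the strand of ACD. They are shown because they lie between the GENCODE starts of both genes, with a match to the CRE motif (TGACGTCA) in capitals. On this strand the first base printed lies next to the PARD6A start and the last next to the ACD start. The label below names the pair and not this order.

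ACD to PARD6A: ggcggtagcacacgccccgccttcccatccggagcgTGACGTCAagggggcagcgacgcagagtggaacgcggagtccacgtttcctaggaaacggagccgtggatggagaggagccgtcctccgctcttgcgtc

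The motif was chosen after the bases had been read, and 1.36% of all promoters in the RefSeq table (GRCh38.p14) hold it in the same length before the start. The RefSeq start of ACD lies 550 bases inside the GENCODE gene, so these bases are outside the RefSeq window of ACD searched next. Also searched on both strands were the GC box, spelled GGGCGG, the CCAAT box of those 5 letters, the E-box, spelled CACGTG, a motif of ETS factors, spelled CCGGAAG, and the telomere repeat itself, spelled TTAGGG. None of them has a match in these bases, and none overlaps the CRE. A RefSeq start was found for 8 of the 10 genes, not for TERF1 or TERF2, and TINF2 and RTEL1 had more than 1 entry. In the 250 bases before the start, 9 of the 10 entries had a GC box, against 42.6% of the 35116 promoters in the table. The windows of the TINF2 entries overlap, so the 10 entries are not independent. The GC content of the 10 entries was 58.4% to 78.8%, with a median of 58% over the table. A CRE match was found in 1 of the 10 entries, that of POT1, against 1.65% of the table. These are matches of letters and not sites of binding.

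TINF2 encodes the bridge of the complex and lies at chr14:24238286-24242663 on the minus strand, with 9 exons. The table lists it under 2 identifiers of nearly equal counts, which were summed. It was at 30.5 CPM in VPA, 28.01 in CA-p38, 30.8 in AICAR 1 and 26.3 in AICAR 2 cells, and at 24.03 in the primed EOS line and 20.4 in the primed CA-p38 EOS line. The groups did not overlap, but the gap between AICAR 2 and primed EOS cells was smaller than that between the primed libraries. TINF2 rose by 0.38 on the log2 scale (SE 0.14, adjusted p = 0.0369). This call was the least firm of the 7: it held under 5 of 15 alternatives. With its identifiers kept apart, the edgeR log2 fold change was 0.31 (adjusted p = 0.136) for the identifier with more counts. The adjusted p ran from 0.0116 with library totals to 0.255 without the primed CA-p38 library, and was 0.0771 without VPA, 0.0603 without CA-p38, 0.0937 without AICAR 1 and 0.0507 without primed EOS cells.

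The make-up of the summed shelterin transcripts differed as well. TERF1 gave 76.4% and 77.1% of the summed shelterin counts in primed EOS and primed CA-p38 cells. In naive cells it gave 32.7% in VPA, 35.9% in CA-p38, 37.8% in AICAR 1 and 42.0% in AICAR 2. The share of ACD was 5.03% and 5.20% in primed and 18.4% to 26.02% in naive libraries, and that of TINF2 was 3.72% and 3.14% in primed and 12.1% to 14.4% in naive libraries. A share does not depend on how libraries are scaled, but a fall of TERF1 alone raises all others.

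TERF2 and POT1 show this: both fell in level, yet their mean shares were 12.8% ± 1.33 and 5.56% ± 0.382 (SD, n = 4) in naive against 6.37% ± 0.387 and 3.83% ± 0.127 (SD, n = 2) in primed libraries. TERF2IP went from 4.52% ± 0.0533 to 9.61% ± 0.583. No share overlapped between the groups, and the exact two-sided permutation p was 0.0667 for each of the 6 genes before and after Benjamini-Hochberg adjustment, the smallest value that 4 against 2 libraries allow, so this design cannot reach 0.05. The size of a share depends on gene length. Per kilobase of exon, TERF1 gave 49.6% in primed and 13.8% in naive libraries and ACD 16.1% and 38.9%, while TERF2 differed less, with 11.5% in primed and 13.2% in naive libraries. The share of POT1 was then lower in naive (3.72%) than in primed libraries (4.46%), and the other 5 kept their direction. Without TERF1, the summed shelterin level was 112.7 to 148.0 CPM in naive and 149.2 and 152.5 CPM in primed libraries; with TERF1 it was 194.3 to 232.9 CPM against 646.3 and 651.6 CPM.

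**Figure D3:**
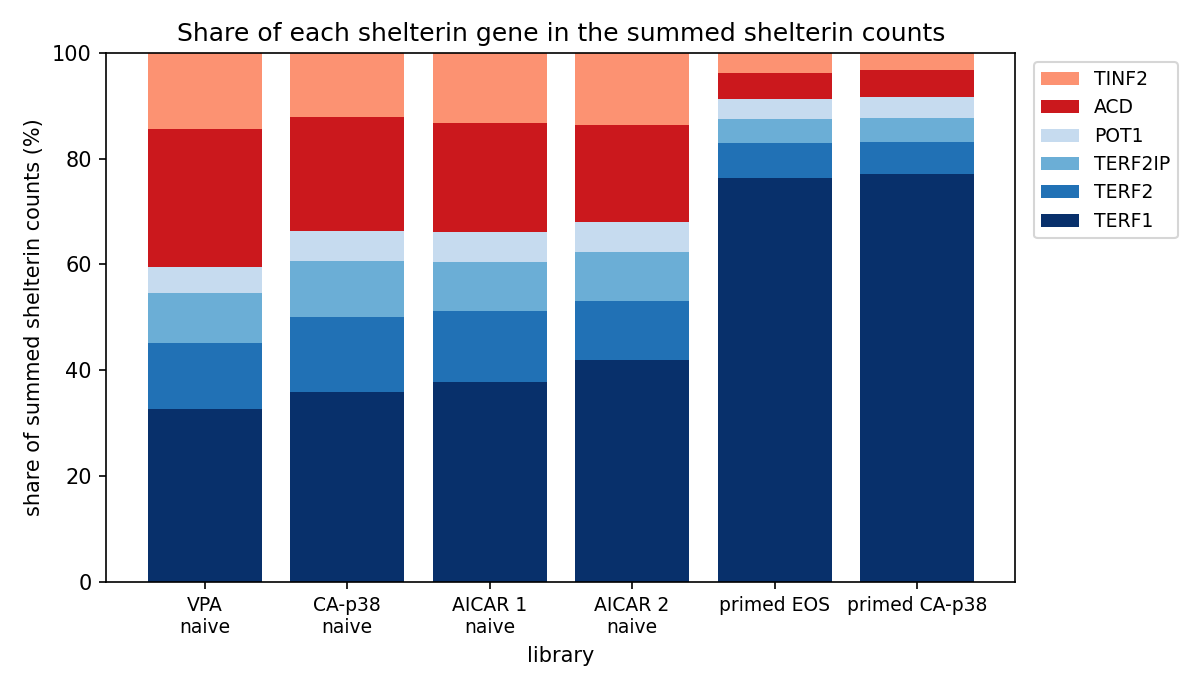
Share (%) of each of the 6 shelterin genes in their summed counts, 1 bar per library. The TERF1 part fills 76.4% and 77.1% of the primed bars and 32.7% to 42.0% of the naive bars, and the ACD and TINF2 parts are wider in all 4 naive bars.

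RIF1 and RTEL1 are not subunits of shelterin but act at the same ends. RIF1 (chr2:151409883-151508013, plus strand, 36 exons) was at 214.1 CPM in VPA, 286.8 in CA-p38, 230.7 in AICAR 1 and 256.0 in AICAR 2 cells, and at 157.2 in the primed EOS line and 212.9 in the primed CA-p38 EOS line. With TMM scaling the VPA value was barely above that of primed CA-p38 cells, and with median-ratio scaling it was below. The primed libraries differed by 1.35-fold, the widest gap between them among the 10 genes. RIF1 rose by 0.42 on the log2 scale (SE 0.14, adjusted p = 0.0263). Without the primed EOS library the log2 fold change was 0.20 (adjusted p = 0.333), and the call was also lost without the naive CA-p38 library (0.0844), without AICAR 2 (0.0514), with median-ratio scaling (0.0599) and with DESeq2 (0.0512), each value an adjusted p.

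RTEL1, on chr20:63657810-63696253 (plus strand, 35 exons), was at 33.9 CPM in VPA, 31.8 in CA-p38, 34.2 in AICAR 1 and 33.4 in AICAR 2 cells, and at 27.2 in the primed EOS line and 30.1 in the primed CA-p38 EOS line. All naive values were above both primed ones, with the narrowest naive spread of the 10 genes (1.08-fold). The log2 fold change of 0.22 (SE 0.12, adjusted p = 0.152) did not pass, and its 95% interval ran from -0.05 to 0.49. It passed with library totals as scaling (0.32, adjusted p = 0.0380). The readthrough transcript RTEL1-TNFRSF6B shares exons with RTEL1 and was listed at 11.2 to 14.1 CPM in naive and 11.3 and 11.5 CPM in primed libraries, so how reads were split between both is uncertain.

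RTEL1 starts head to head with STMN3, a gene of a microtubule regulator, which fell from 82.0 and 89.7 CPM in primed to between 29.1 and 32.3 CPM in naive libraries (log2 fold change -1.51, SE 0.11, adjusted p = 1.24e-07). The 127 bases between both starts (chr20:63657683-63657809, plus strand, the strand of RTEL1) are shown for the same reason as those of ACD. They hold none of the 6 motifs searched, so nothing is in capitals.

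STMN3 to RTEL1: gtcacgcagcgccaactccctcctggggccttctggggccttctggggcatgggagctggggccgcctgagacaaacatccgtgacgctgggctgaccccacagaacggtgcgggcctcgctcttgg

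Levels can be compared between genes only per length. As CPM per kilobase of the canonical transcript, TERF1 led in primed libraries with 149.6 ± 1.85 (SD, n = 2), ahead of DKC1 with 103.0 ± 6.89 and ACD with 22.0 ± 0.639, and TERT was last with 3.98 ± 0.426. In naive libraries DKC1 led with 111.7 ± 8.48 (SD, n = 4), followed by ACD with 31.2 ± 5.43 and TERF1 with 24.2 ± 2.41, and POT1 was last with 3.08 ± 0.357, just under TERT with 3.96 ± 0.534. The full naive order was DKC1, ACD, TERF1, RIF1, TINF2, TERF2IP, TERF2, RTEL1, TERT and POT1. Of its 9 neighboring pairs, 5 had overlapping library ranges (ACD and TERF1, RIF1 and TINF2, TERF2IP and TERF2, TERF2 and RTEL1, TERT and POT1). The full primed order was TERF1, DKC1, ACD, TERF2, TERF2IP, RIF1, TINF2, POT1, RTEL1 and TERT, with overlap in 4 of 9 pairs (TERF2 and TERF2IP, TERF2IP and RIF1, RIF1 and TINF2, POT1 and RTEL1). These orders depend on the length used: per kilobase of all exons joined, TERF1 was gene 5 in naive libraries (5.12 ± 0.510), below RIF1 (13.6 ± 1.75) and TINF2 (6.60 ± 0.487), TERF2 stood just above TERF2IP, and TERF1 still led in primed libraries (31.7 ± 0.392).

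Whether each way of induction gave the same picture was read from the ratio of each naive library to the primed library of its own line, with 95% Clopper-Pearson intervals that cover counting error only and no test, since each line had 1 primed library. TERF1 was at 0.140 (0.135 to 0.145) of its parent in VPA, 0.165 (0.160 to 0.171) in CA-p38, 0.178 (0.173 to 0.184) in AICAR 1 and 0.165 (0.160 to 0.171) in AICAR 2 cells. It was the only one of the 10 genes under 0.5 of the parent in all 4 libraries, as were 13.4% of all genes tested. POT1 was at 0.437 in VPA, 0.516 in CA-p38, 0.554 in AICAR 1 and 0.467 in AICAR 2 cells. Both genes were below their parent in all 4 libraries, whichever the way of induction, although the counting intervals of VPA and AICAR 1 cells did not overlap for either gene.

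TERF2 varied more, from 0.5003 in AICAR 2 to 0.826 in CA-p38 cells, and TERF2IP likewise from 0.620 in AICAR 2 to 0.816 in CA-p38 cells. ACD ran from 1.10 in AICAR 2 to 1.69 in VPA cells, TINF2 from 1.09 in AICAR 2 to 1.37 in CA-p38 cells, and RIF1 from 1.35 in CA-p38 to 1.63 in AICAR 2 cells. AICAR 2 gave the lowest ratio of the 4 libraries for TERT (0.750), TERF2, TERF2IP, ACD and TINF2, while AICAR 1, from the same treatment, had 0.966, 0.723, 0.753, 1.48 and 1.28 for these genes. A difference between the EOS and CA-p38 EOS lines in the naive to primed change (interaction term) was not called for any of the 10 genes, by edgeR (adjusted p = 0.9999 for each, 0 genes at an unadjusted p under 0.05) or by limma-voom (0 genes), where 0.00377% of all genes were called. The interaction estimates ran from -0.32 to 0.43 on the log2 scale, and the fit had 1 naive CA-p38 library and 1 primed library per line.

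**Figure D4:**
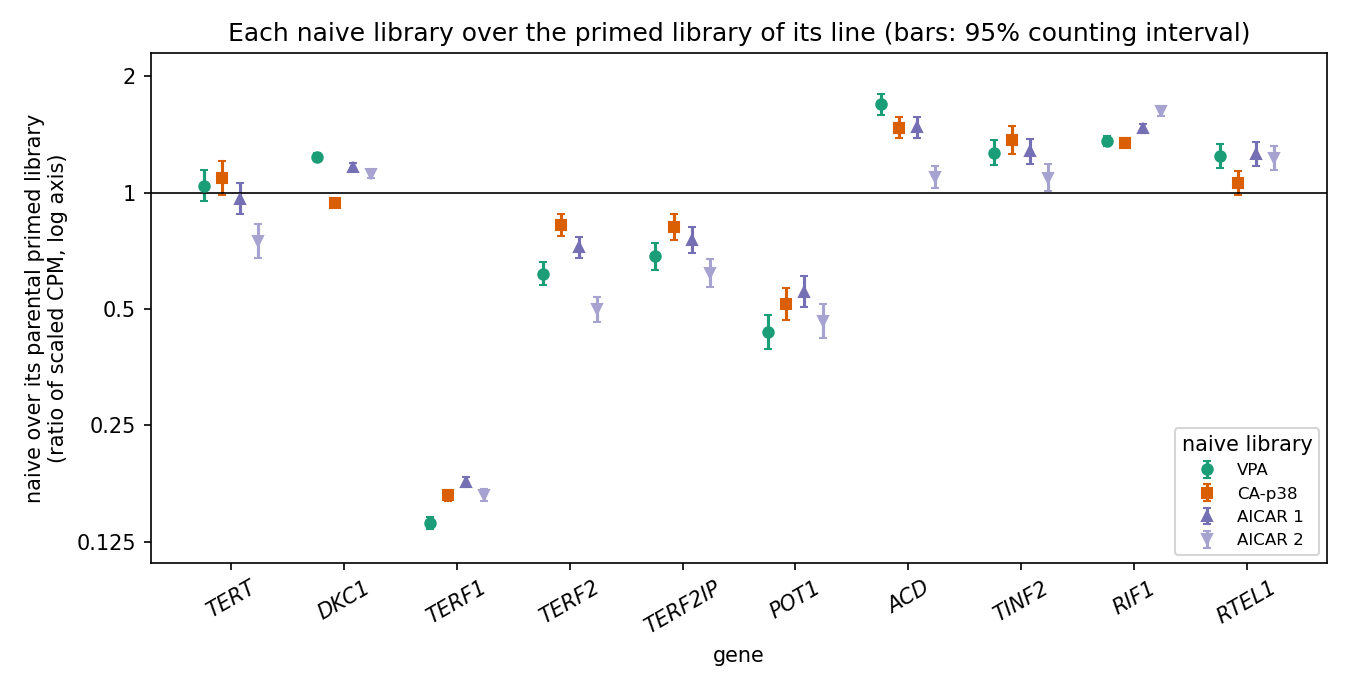
Ratio of scaled CPM in each naive library over the primed library of its line (log axis), with 95% counting intervals. All 4 symbols of TERF1, TERF2, TERF2IP and POT1 lie below 1, all 4 of ACD, TINF2, RIF1 and RTEL1 lie above 1, and those of TERT and DKC1 lie on both sides.

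The other genes of telomere biology were read from 4 lists of 48 genes, all listed in the table, of which 46 were tested. The lists were written with results of these data known, so their share called is not an independent result. In the same fit 33 of the 46 (71.7%) were called, 11 higher and 22 lower in naive cells, beside 53.1% of all genes tested (26% higher and 27% lower) and 60.1% of those with at least 10 counts in every library. The median of their fitted log2 changes was -0.28, against 0.11 over all genes tested. Of 14 proliferation genes examined beside them (replication licensing and mitosis), 12 fell and 2 did not pass, with a median of -0.67 and a summed level of 2946 to 3329 CPM in naive against 4866 and 5451 CPM in primed libraries. Their part in the telomere results was not tested.

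Of the telomerase particle and its assembly, 3 of 13 genes tested rose, 5 fell and 5 did not pass. ZCCHC8 (log2 fold change 0.95, SE 0.13) and PARN (0.87, SE 0.11) act in the trimming and turnover of the telomerase RNA, and TGS1 (0.53, SE 0.11) forms its cap. Those that fell most were RUVBL1 (-0.86, SE 0.09), an ATPase of particle assembly, WRAP53 (-0.60, SE 0.15), which brings telomerase to Cajal bodies, and PINX1 (-0.59, SE 0.13), an inhibitor of telomerase. The telomerase RNA TERC had 0 to 7 counts per library and was not tested. It carries no long poly(A) tail, and poly(A) RNA was selected for these libraries.

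Of the CST complex and the enzymes that fill in the lagging strand, 2 of 7 rose and 3 fell. TEN1 rose from 1.84 and 2.26 CPM in primed to between 4.35 and 6.02 CPM in naive libraries (log2 fold change 1.42, SE 0.27, adjusted p = 0.000652), and CTC1 by 0.38 (SE 0.15, adjusted p = 0.0419). POLA1, the catalytic subunit of DNA polymerase alpha, fell by 1.69 (SE 0.11), from 137.3 and 145.1 CPM to between 39.4 and 49.2 CPM. PRIM2 fell by 0.59 (SE 0.12) and POLA2 by 0.40 (SE 0.13), so the CST genes that passed rose and the polymerase and primase genes that passed fell.

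Of 18 accessory and end-processing genes, 3 rose, 11 fell and 4 did not pass. SAMHD1, a dNTP hydrolase, rose by 3.27 on the log2 scale (SE 0.13), from 39.7 and 49.4 CPM in primed to between 410.0 and 456.6 CPM in naive libraries. HMBOX1, a telomere repeat binder, rose by 0.53 (SE 0.19) and the nuclease gene DCLRE1B (Apollo) by 0.44 (SE 0.14). ATR, a kinase of the replication stress response, fell by 1.94 (SE 0.13), TNKS, the tankyrase that releases TERF1 from telomeres, by 1.49 (SE 0.13), and the helicase gene BLM by 1.36 (SE 0.12). TNKS was at 25.3 to 31.9 CPM in naive and 73.5 and 79.9 CPM in primed libraries, so it moved in the same direction as TERF1.

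Of the genes of alternative lengthening and telomere chromatin, 3 of 8 tested rose and 3 fell. ZSCAN4, a marker of short bursts of telomere lengthening in mouse embryonic stem cells, had 4 counts in primed EOS, 1 in primed CA-p38, and 89 in VPA, 63 in CA-p38, 205 in AICAR 1 and 299 in AICAR 2 cells (log2 fold change 5.90, SE 0.87, adjusted p = 8.60e-05). MAJIN, which tethers meiotic telomeres to the nuclear envelope, had 0 counts in both primed libraries and 15 to 19 in naive libraries, which makes it at least 5.23-fold higher when 3 counts are allowed per primed library. UPF1, an RNA helicase of nonsense-mediated decay, rose by 0.55 (SE 0.12). SMARCAL1, which remodels stalled replication forks, fell by 0.81 (SE 0.16), the chromatin remodeler gene ATRX by 0.74 (SE 0.19) and the SUMO ligase gene NSMCE2 by 0.50 (SE 0.17). TERB2, a meiotic partner of MAJIN, had at most 3 counts in any library and was not tested.

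**Figure D5:**
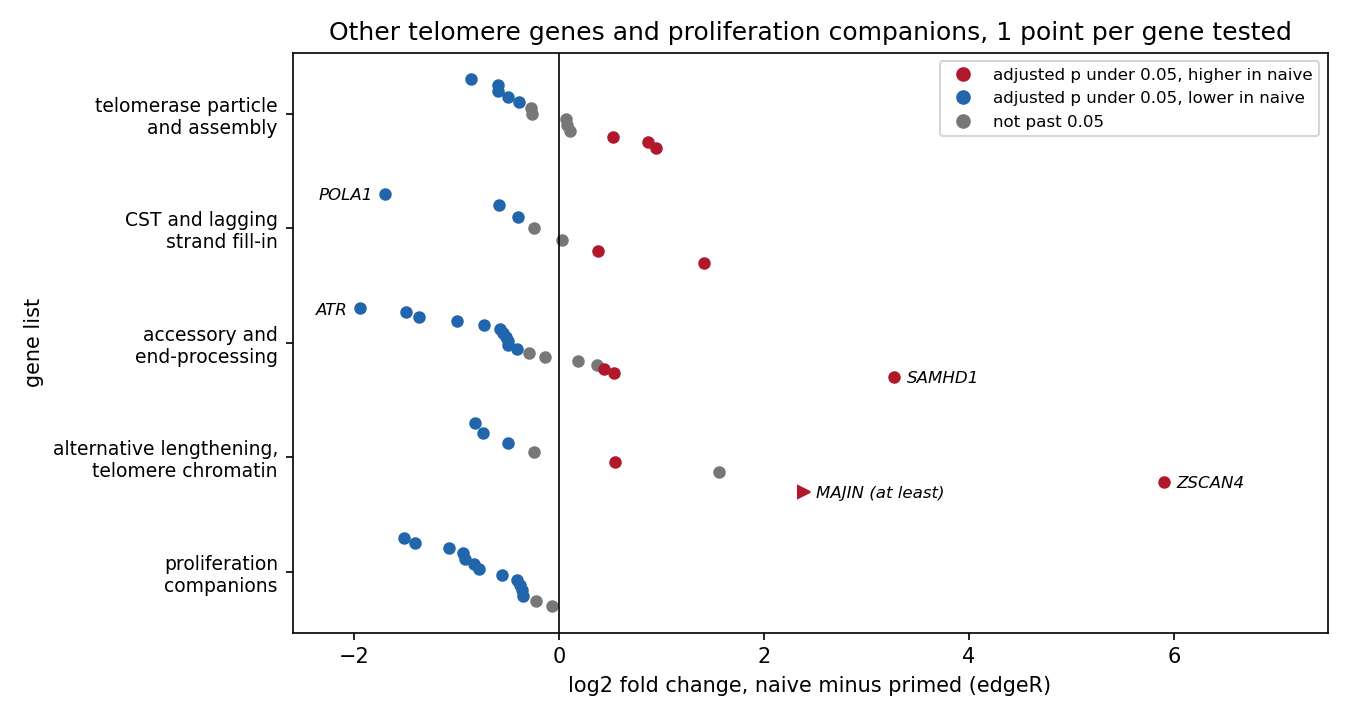
Log2 fold change (naive minus primed) of each tested gene of the 4 telomere lists and of the proliferation genes, 1 point per gene, colored by call; MAJIN is drawn as an arrowhead at its lower bound. SAMHD1 (3.27) and ZSCAN4 (5.90) stand to the right and ATR (-1.94) and POLA1 (-1.69) to the left, and no proliferation gene passed on the right.

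Markers of other cell types were low or moved with state as follows. Of 6 fibroblast markers 3 fell and 3 did not pass, with a summed level of 30.8 to 72.8 CPM in naive and 175.1 and 192.2 CPM in primed libraries, and most of the sum came from COL1A1 and COL1A2, which fell. The 3 that did not pass had estimates above 0: COL3A1 was at 3.57 to 16.6 CPM in naive and 2.19 and 4.75 CPM in primed libraries, DCN was at 0.764 to 1.21 CPM against 0.511 and 0.566 CPM, and LUM had 59 counts in CA-p38, 17 in AICAR 1, 0 in VPA and AICAR 2, 6 in the primed EOS line and 2 in its CA-p38 counterpart. In these 3 markers the naive CA-p38 library was the highest of the naive ones. The feeders were mouse cells and reads were mapped to human sequences, so these levels do not measure how much feeder RNA was present. Of 4 neural markers 2 fell (NES and MAP2), and PAX6 was at most 1.29 CPM in any library. The summed level of all 4 was 90.4 to 93.8 CPM in naive against 433.7 and 514.4 CPM in primed libraries. Of 4 trophectoderm markers 3 rose (sum of all 4: 11.3 to 13.8 against 3.82 and 4.88 CPM). Of 4 hypoblast and endoderm markers 1 rose and 3 fell (sum of all 4: 10.02 to 15.5 against 8.30 and 29.2 CPM). Their part in the results was not tested.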

How the data were processed

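RNA-seq libraries from 6 samples of polyadenylated RNA were analyzed. The authors deposited whole-number counts per Ensembl gene identifier: per the methods, reads were trimmed with cutadapt through Trim Galore, mapped with Bowtie2 to GRCh38 cDNA and ncRNA sequences (Ensembl), and summed per gene at a mapping quality of at least 1. The submitters' processing notes name cutadapt 1.15 and Trim Galore 0.4.4. Another 23 columns were not used, and 26 spike-in rows were left out. Identifiers sharing a name were summed, which also joins distinct genes under 5097 clone names.

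The quasi-likelihood test of edgeR 4.0.16 (R 4.3.3) set the 4 naive against the 2 primed libraries without covariates, after TMM scaling and filterByExpr (common dispersion 0.0563), with Benjamini-Hochberg adjustment over 26497 genes. Standard errors were derived from the F statistics. Alternatives were DESeq2 1.42.0, limma 3.58.1 (voom without a design, then limma), other scalings and other filters. Further ones kept identifiers apart, blocked on parental line, summed the AICAR libraries or left out each library in turn. DESeq2 scaled by median ratios and limma-voom by library totals, so neither differs in scaling from the alternative of that name. The fits were tested on simulated data. Shares used an exact permutation test in Python 3.11.15 (scipy 1.17.1). Named were all 10 members and, per list, up to 3 genes with the highest and 3 with the lowest fold change past the threshold, besides TERC and ZSCAN4; TERB2, POT1-AS1, PARD6A, STMN3, KARS1 and RTEL1-TNFRSF6B were named as untested, overlapping or neighboring genes. Members and lists were chosen with earlier results of these data known.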

Additional observations from a re-analysis of the deposited data

Results flagged for a closer look

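DKC1 moved in opposite directions in the parental lines. Its log2 ratio over the parental library was -0.0905 for the CA-p38 cells and 0.31, 0.22 and 0.16 for the VPA, AICAR 1 and AICAR 2 cells. With 1 naive CA-p38 library, the interaction term of the edgeR fit was -0.32 on the log2 scale with an adjusted p of 0.9999, so the difference between the lines did not pass. With library totals as scaling, the CA-p38 ratio was 1.02 in place of 0.939, above 1 as in the EOS line. By Dixon's ratio of gap to range, none of the 10 genes had 1 of the 4 naive libraries flagged as far from the others. The highest ratio was 0.665 (RTEL1, CA-p38). With 4 values a library must lie very far out to be flagged, so this does not show that the naive libraries agree.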

How the results depend on the processing

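With 4 and 2 libraries, of which no induction method has more than 2, leaving out 1 library moved the number of members called from 7 to between 2 and 6, lowest without the primed EOS library (2) and next without the primed CA-p38 library (4). The other alternatives gave 5 to 8 members. Of the 48 other telomere genes, 46 were tested in the main fit. Leaving out 1 naive library gave 30 to 33 of them called in place of 33, and the alternatives that left no library out gave 27 to 33. Fits without 1 primed library called fewer. Of all genes tested, 50.7% to 52.7% were called without 1 naive library. Under the alternatives that left none out, the share ran from 34.6% (no filter beyond 1 count) to 60.1% (10 counts in every library). Over all alternatives the 10 fold changes were compared 150 times: 122 kept direction and side of the threshold, 21 lost the call, 1 gained it and 6 turned sign. The 6 were all of TERT, whose log2 fold change of -0.01 became 0.0865 with library totals, 0.0893 with limma-voom, 0.014 when each library had to hold 10 counts and 0.0271 with summed AICAR libraries, and ran from -0.1051 to 0.0932 when 1 library was left out. The POT1 share, naive minus primed, was -0.74 percentage points per kilobase of exon in place of 1.73, and 0.39 per kilobase of canonical transcript, a length added after seeing the data. The cause of these changes was not tested. The parental line block left 6 members called, without TINF2 (adjusted p = 0.0626). Replicate numbers were not used to pair libraries. Depth did not limit the members, each of which had at least 553 counts in every library.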
